A study of Mus musculus with 2 samples.

Results

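Fatty acid oxidation was described through 34 genes of the mitochondrial and peroxisomal pathways, chosen by symbol from the 32285 genes listed for each section. All 34 symbols were found, and all 34 were measured, meaning that they reached 10 CPM (UMIs per 1000000 UMIs of the section) in at least 1 section. They comprise 17 mitochondrial enzymes and carriers, 9 peroxisomal enzymes, 3 medium-chain acyl-CoA synthetases of the mitochondrial matrix, and 5 members that take up or activate fatty acids or serve both organelles. The tissue was mouse kidney, labelled as taken on day 7 after unilateral ureteral obstruction, an operation that ties off 1 ureter. One frozen section of 10 µm came from a mouse given SH045, a carbamate derived from larixol that inhibits the cation channel TRPC6. The other came from a mouse given Vehicle. RNA was captured on Visium slides, whose barcoded spots are each wide enough to collect RNA from several neighbouring cells, not always of 1 type. By the labels both groups share the operation and the day, and each is 1 section of 1 animal, so no comparison below has a replicate or a p-value.

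Fatty acids enter tubule cells through transporters such as CD36, are activated to acyl-CoA esters, and reach the mitochondrial matrix through the carnitine shuttle. There a repeated cycle of dehydrogenation, hydration, a second dehydrogenation and thiolysis shortens the chain and feeds electrons to the respiratory chain through the electron transfer flavoprotein. Peroxisomes shorten very long and branched chains with a parallel set of enzymes, whose first step passes electrons to oxygen, and hand the products on as carnitine esters. The proximal tubule is known for its many mitochondria and peroxisomes and for its reliance on fatty acids as fuel.

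The SH045 section held 22388623 UMIs in 790 spots and the section labelled Vehicle 4327613 UMIs in 676 spots, with a median of 27733 and 4932.5 UMIs per spot. Mitochondrially encoded genes took 4.24% and 10.4% of the UMIs. Havcr1 and Lcn2, tubule injury genes known to be induced by obstruction, reached 992 and 1233 CPM under SH045 but only 1.62 and 2.08 CPM in the other section, where Krt20 had no UMI. These levels go against the surgery named in the labels for that section, so it is called the section labelled Vehicle throughout. All 12 injured-tubule markers were higher in the SH045 section, with summed levels of 27184 against 1633 CPM. All 13 markers of the convoluted proximal tubule were lower there, at 1863 against 11715 CPM (position blocks 779 to 2386 and 11233 to 12561 CPM). Of 9 straight proximal tubule markers 6 were higher and 2 lower in the SH045 section, and they summed to 586 against 388 CPM. All 8 fibroblast and matrix markers (4196 against 229 CPM) and all 7 macrophage markers (1879 against 223 CPM) were higher in the SH045 section. Of 8 adipocyte markers none was measured, and 7 had no UMI in the section labelled Vehicle. The part of these differences in tissue makeup in the member values was not tested, and in such sections fewer cells of a type and less RNA per cell cannot be told apart. The matrices share 335 spot barcodes, which on these slides encode grid positions.

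Of the 34 members, 22 were at least 1.5-fold lower in the SH045 section than in the section labelled Vehicle, none was 1.5-fold higher, and 12 lay within that fold. Over the 10463 measured genes of the whole table, 12.0% were lower by that fold and 53.2% were higher. Summed over the members, the level was 4201 CPM under SH045 and 9254 CPM in the other section, a 2.20-fold difference (95% counting interval 2.18 to 2.23). The median measured gene was itself higher in the SH045 section by 0.66 on the log2 scale. Relative to that gene, 32 members were lower and none was higher, beside 26.5% lower and 26.5% higher of all measured genes. Each section was also divided by position into 4 blocks of 169 to 198 spots, which show the spread within a section. For 23 members every block of the SH045 section lay below every block of the other section, and for none above, whereas among all measured genes 13.5% were separated downward and 56.3% upward. The intervals given here reflect the counting of UMIs alone, so differences among mice or among sections of a kidney are outside them.

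**Figure D1:**
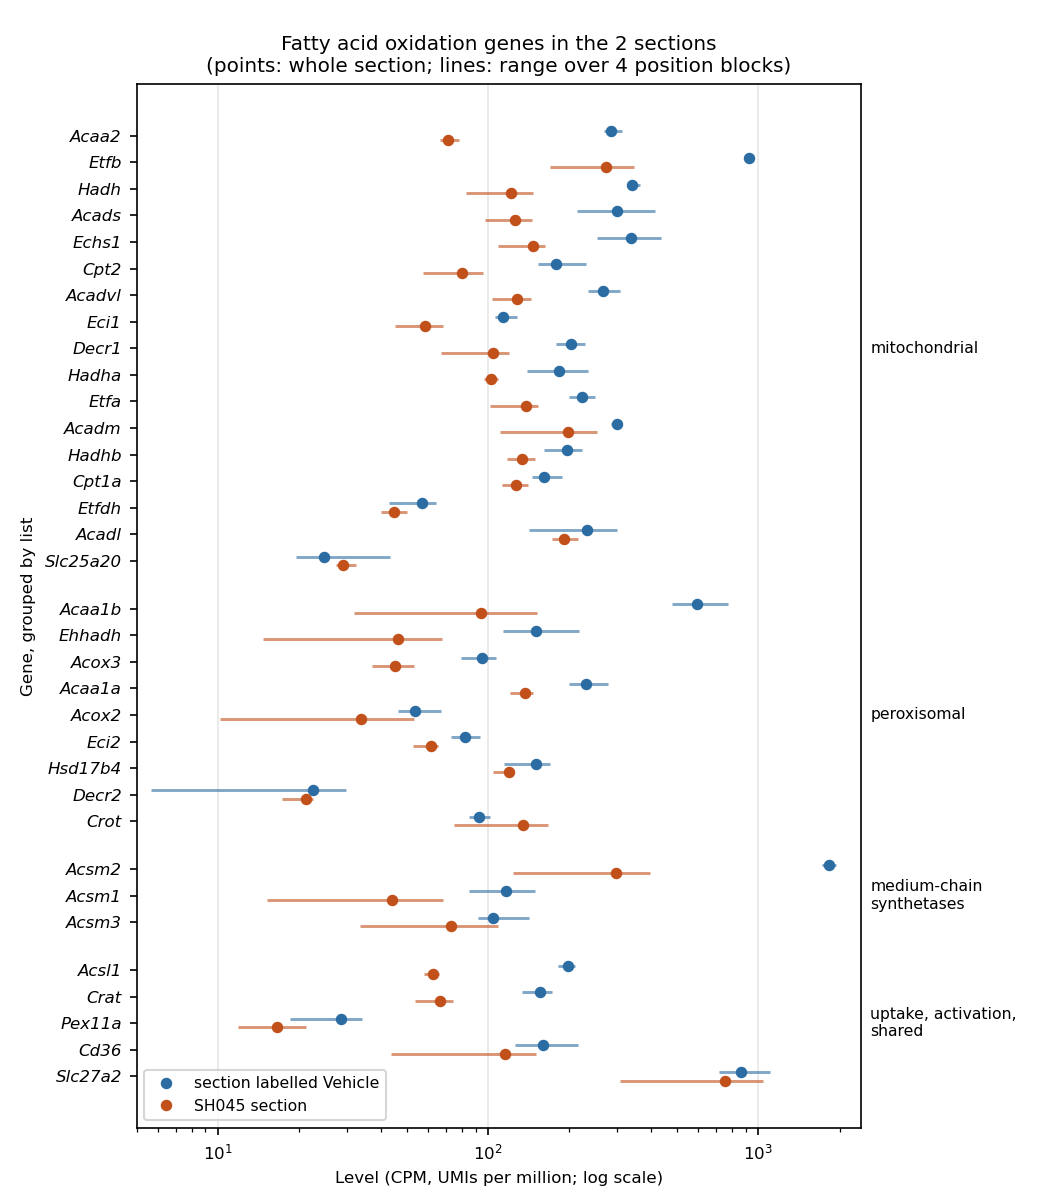
Level of each of the 34 members in CPM on a log scale, in the SH045 section (orange) and the section labelled Vehicle (blue), grouped by list. Points are whole sections and lines the range over 4 position blocks. 32 of 34 points are further right in the section labelled Vehicle, with Slc25a20 and Crot the exceptions.

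Among the 17 mitochondrial genes 12 were lower in the SH045 section and 5 lay within 1.5-fold, with a median log2 ratio of -0.96 and summed levels of 2075 against 4328 CPM (2.09-fold, 2.05 to 2.12). The blocks of this sum ran from 1595 to 2362 CPM under SH045, below the 4019 to 4769 CPM of the section labelled Vehicle. The 4 acyl-CoA dehydrogenases carry out the first step of the cycle on chains of different length. Acads, for short chains, stood at 126 against 299.7 CPM (2.38-fold, 2.22 to 2.54). Acadvl, for very long chains, stood at 128 against 266 CPM (2.08-fold, 1.94 to 2.23). Acadm, for medium chains, stood at 198 against 299 CPM (1.51-fold, 1.42 to 1.60), close to the fold used for calls. Acadl, for long chains, showed the smallest difference of the 4, at 191 against 232 CPM (1.22-fold, 1.13 to 1.30), and its blocks overlapped, with 172 to 215 CPM under SH045 and 141 to 301 CPM in the other section. The chain-length order therefore did not match the order of the differences.

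The later steps of the cycle differed more by summed level, although Hadha and Hadhb, described below, differed less than Acads and Acadvl. Echs1, the short-chain enoyl-CoA hydratase, stood at 146 against 338 CPM, and its blocks at 109 to 163 and 254 to 437 CPM did not overlap. Hadh, the medium and short-chain 3-hydroxyacyl-CoA dehydrogenase, stood at 122 against 341 CPM (2.80-fold, 2.63 to 2.99). Acaa2, the mitochondrial thiolase that ends each round, stood at 70.9 against 286 CPM, which at 4.04-fold (3.74 to 4.35) was the largest difference among the 17. The SH045 blocks of Acaa2 were close to each other, at 68.2, 78.1, 66.6 and 70.7 CPM, and all lay far below the 4 blocks of the other section, at 270.4, 288, 312 and 269.5 CPM. Taken as a step, the hydratase, dehydrogenase and thiolase genes, with Hadha and Hadhb included, summed to 575 against 1344 CPM (2.34-fold). The acyl-CoA dehydrogenases summed to 644 against 1098 CPM (1.70-fold).

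Hadha and Hadhb encode the alpha and beta subunits of the trifunctional protein, which carries out the last 3 steps on long chains. In RefSeq on GRCm38.p6, the assembly also called mm10, they lie head to head on chromosome 5, Hadha at chr5:30119423-30154980 on the minus strand and Hadhb at chr5:30155253-30184593 on the plus strand, with 272 bases between their first bases. The shared stretch upstream of both, chr5:30155003-30155230, is printed on the plus strand because it lies between them. What it does was not tested. Its 228 bases hold 57.0% G and C and 15 CG pairs, which are in capitals.
Hadha and Hadhb: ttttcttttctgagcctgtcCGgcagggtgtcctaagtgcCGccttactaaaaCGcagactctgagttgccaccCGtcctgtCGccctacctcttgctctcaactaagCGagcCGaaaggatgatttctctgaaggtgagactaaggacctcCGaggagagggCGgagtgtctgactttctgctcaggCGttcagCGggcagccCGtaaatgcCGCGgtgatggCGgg

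Hadha stood at 103 against 183 CPM (1.78-fold, 1.64 to 1.93), with blocks of 96.4 to 109 and 139 to 234 CPM. Hadhb stood at 134 against 196 CPM (1.46-fold, 1.36 to 1.58), with blocks of 118 to 149 and 161 to 223 CPM. Both pairs of block ranges were apart, while only Hadha passed 1.5-fold.

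The electron transfer flavoprotein takes electrons from the acyl-CoA dehydrogenases and passes them through Etfdh to ubiquinone. Etfb, its beta subunit, at chr7:43444072-43457800, stood at 274 against 926 CPM (3.38-fold, 3.25 to 3.52). Its blocks were 347, 293, 259 and 170.2 CPM under SH045, and only 890.5 to 948 CPM in the other section. Etfa, the partner subunit, stood at 139 against 222 CPM (1.60-fold), and Etfdh at 44.8 against 56.8 CPM (1.27-fold, 1.10 to 1.46) with overlapping blocks. The subunits of this protein were thus unequally different, and Etfb took 13.2% of the UMIs of the mitochondrial list in the SH045 section and 21.4% in the other.

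Of these steps, entry into the matrix differed least by summed level, at 236 against 365 CPM (1.55-fold). Cpt1a, the outer-membrane carnitine palmitoyltransferase that sets the rate of entry, stood at 127 against 161 CPM (1.27-fold, 1.17 to 1.38). Cpt2, which reforms the acyl-CoA inside, stood at 80.1 against 179 CPM (2.23-fold). Slc25a20, the carnitine-acylcarnitine carrier between them, stood at 29.0 against 24.7 CPM, with an interval of its fold, SH045 over the other section, of 0.96 to 1.45, so that no difference was detectable at this depth. It was 1 of 2 members not lower in the SH045 section per total UMIs. Its log2 ratio of 0.23 turned to -0.38 with TMM scaling. With spots of the section labelled Vehicle under 10% mitochondrially encoded UMIs it was 0.53. For enzymes that deal with double bonds, Eci1 stood at 58.3 against 114 CPM (1.95-fold) and Decr1 at 104 against 202 CPM (1.94-fold), and the blocks of both were apart.

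Among the 9 peroxisomal enzymes 5 were lower in the SH045 section and 4 lay within 1.5-fold, with a median log2 ratio of -0.67 and summed levels of 695 against 1471 CPM (2.12-fold, 2.06 to 2.18). The blocks of the sum were 464 to 850 CPM and 1210 to 1811 CPM. Acox3 and Acox2 are oxidases of the first step for branched substrates. Acox3 stood at 45.3 against 94.97 CPM (2.09-fold), with blocks apart, and Acox2 at 33.8 against 53.6 CPM (1.59-fold, 1.36 to 1.84). The SH045 blocks of Acox2 ran from 10.2 to 53.3 CPM and reached those of the other section, 46.5 to 67.1 CPM.

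The middle steps are carried out by the 2 bifunctional proteins, Ehhadh and Hsd17b4. Ehhadh, the L-bifunctional enzyme at chr16:21761285-21787834, stood at 46.4 against 150.2 CPM (3.24-fold, 2.93 to 3.58). Its SH045 blocks fell into a higher pair, 67.6 and 67.6 CPM, and a lower pair, 27.4 and 14.7 CPM, all below the 113 to 217 CPM of the other section. Hsd17b4, the D-bifunctional enzyme, stood at 119.9 against 149.97 CPM (1.25-fold, 1.15 to 1.36) with overlapping blocks. The 2 enzymes of the same step therefore differed by unequal amounts.

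The peroxisomal thiolases Acaa1a and Acaa1b are close paralogs that lie near each other, at chr9:119341028-119350296 and chr9:119148043-119157093. Reads that fit both could have been dropped or assigned to either, so the split between them is uncertain. Together they stood at 232 against 824 CPM (3.56-fold, 3.41 to 3.71). Acaa1b alone stood at 94.4 against 595 CPM, and at 6.30-fold (5.95 to 6.68) had the largest difference of the 34 members. Its blocks were 152, 114, 64.6 and 31.8 CPM under SH045, against 775, 479, 589 and 503 CPM. Acaa1a stood at 137 against 229 CPM (1.67-fold, 1.55 to 1.80). The ratio of Acaa1b to Acaa1a UMIs was 0.687 (0.650 to 0.727) in the SH045 section and 2.59 (2.41 to 2.79) in the section labelled Vehicle, with block ranges of 0.265 to 1.04 and 2.40 to 2.80. Acaa1b took 13.6% of the peroxisomal list's UMIs in the first and 40.5% in the second.

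The remaining peroxisomal members differed little or the other way. Eci2, an enoyl-CoA isomerase, stood at 61.6 against 82.5 CPM (1.34-fold), and Decr2, a dienoyl-CoA reductase, at 21.2 against 22.4 CPM (1.06-fold, 0.84 to 1.32). Crot, at chr5:8966033-8997146, makes carnitine esters of the shortened chains for export. It stood at 135 against 92.4 CPM, 1.46-fold higher (1.31 to 1.62) in the SH045 section per total UMIs. Its log2 ratio of 0.54 turned to -0.07 with TMM scaling and -0.11 with median-of-ratios scaling. It was 0.59 as a mean over spots and 0.61 with spots of the section labelled Vehicle flagged as tissue, where Crot passed 1.5-fold. The blocks of Crot were 167, 147, 133 and 75.003 CPM against 102, 84.8, 93.0 and 87.0 CPM, and they overlapped.

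Acsm1, Acsm2 and Acsm3 activate medium-chain acids inside mitochondria and lie side by side between positions 119554340 and 119784896 of chromosome 7. Acsm2 stood at 298 against 1827 CPM (6.14-fold, 5.94 to 6.34), the second largest difference of the 34. Its SH045 blocks were 396, 350.3, 273 and 124 CPM, whereas those of the other section were 1725, 1925, 1768 and 1937 CPM. Acsm1 stood at 44.3 against 117 CPM (2.64-fold) and Acsm3 at 73.2 against 104 CPM (1.43-fold, 1.28 to 1.58). These neighbouring genes thus ranged from 1.43-fold to 6.14-fold, and the blocks of Acsm3 overlapped.

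Of the 5 uptake, activation and shared members, 3 were lower. Acsl1, the long-chain acyl-CoA synthetase, stood at 62.6 against 197 CPM (3.15-fold, 2.89 to 3.43), with blocks of 57.9 to 66.1 and 181 to 209 CPM. Crat, carnitine acetyltransferase, stood at 66.2 against 155 CPM (2.35-fold). Pex11a, which promotes peroxisome division, stood at 16.6 against 28.7 CPM (1.72-fold, 1.396 to 2.12), with overlapping blocks. The 2 uptake genes lay within 1.5-fold and their blocks overlapped. Cd36, the fatty acid translocase, stood at 115 against 159 CPM (1.38-fold), with SH045 blocks of 43.7 to 151 CPM. Slc27a2, a transport protein that also activates very long chains, stood at 755 against 867 CPM (1.15-fold, 1.11 to 1.19), with blocks of 309 to 1039.7 CPM under SH045 and 716 to 1102 CPM in the other section.

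The mitochondrial list was set against the peroxisomal list within each section. UMI counts at the 3′ end are not divided by gene length here, so the ratio of the lists is compared only between sections or spots and not read as a ratio of enzyme amounts. It was 2.99 (2.93 to 3.04) in the SH045 section and 2.94 (2.86 to 3.03) in the section labelled Vehicle, and block ranges of 2.78 to 3.44 and 2.63 to 3.32 overlapped. The near-equal ratios concealed a difference in makeup. Without Etfb and Acaa1b, which took the largest share of their lists in the section labelled Vehicle, the ratios were 3.00 and 3.88. With only the enzymes that shorten the chain they were 3.69 and 3.06. With the Acsm genes added to the mitochondrial list and Slc27a2, Crat and Pex11a to the peroxisomal list they were 1.62 and 2.53. Which section had the higher ratio thus depended on which genes were counted.

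Across spots, each thinned to 2500 UMIs (788 spots of the SH045 section and 561 of the other, with 2 and 115 shallower spots left out), the median spot held 5 mitochondrial-list UMIs (quartiles 3 and 7) in the SH045 section and 10 (8 and 13) in the section labelled Vehicle. For the peroxisomal list the medians were 1 (1 and 2) and 3 (2 and 5), and 24.9% against 5.35% of spots had no such UMI. The sums of both lists were weakly correlated over spots, with r = 0.26 in the SH045 section and 0.25 in the other, which at these counts is no finding. Summed over a spot and its 6 neighbours, which adds counts and shared position, r was 0.59 over 659 neighbourhoods and 0.46 over 237. With the thinned UMIs of convoluted proximal tubule markers, the mitochondrial and peroxisomal sums had r of 0.41 and 0.31 over the SH045 spots, and of 0.24 and 0.37 over those of the section labelled Vehicle. With straight proximal tubule markers the values were 0.29 and 0.36, and 0.12 and 0.20. With fibroblast and matrix markers they were -0.27 and -0.21, and -0.09 and -0.08. Points in these correlations share a library, a depth and neighbours.

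**Figure D2:**
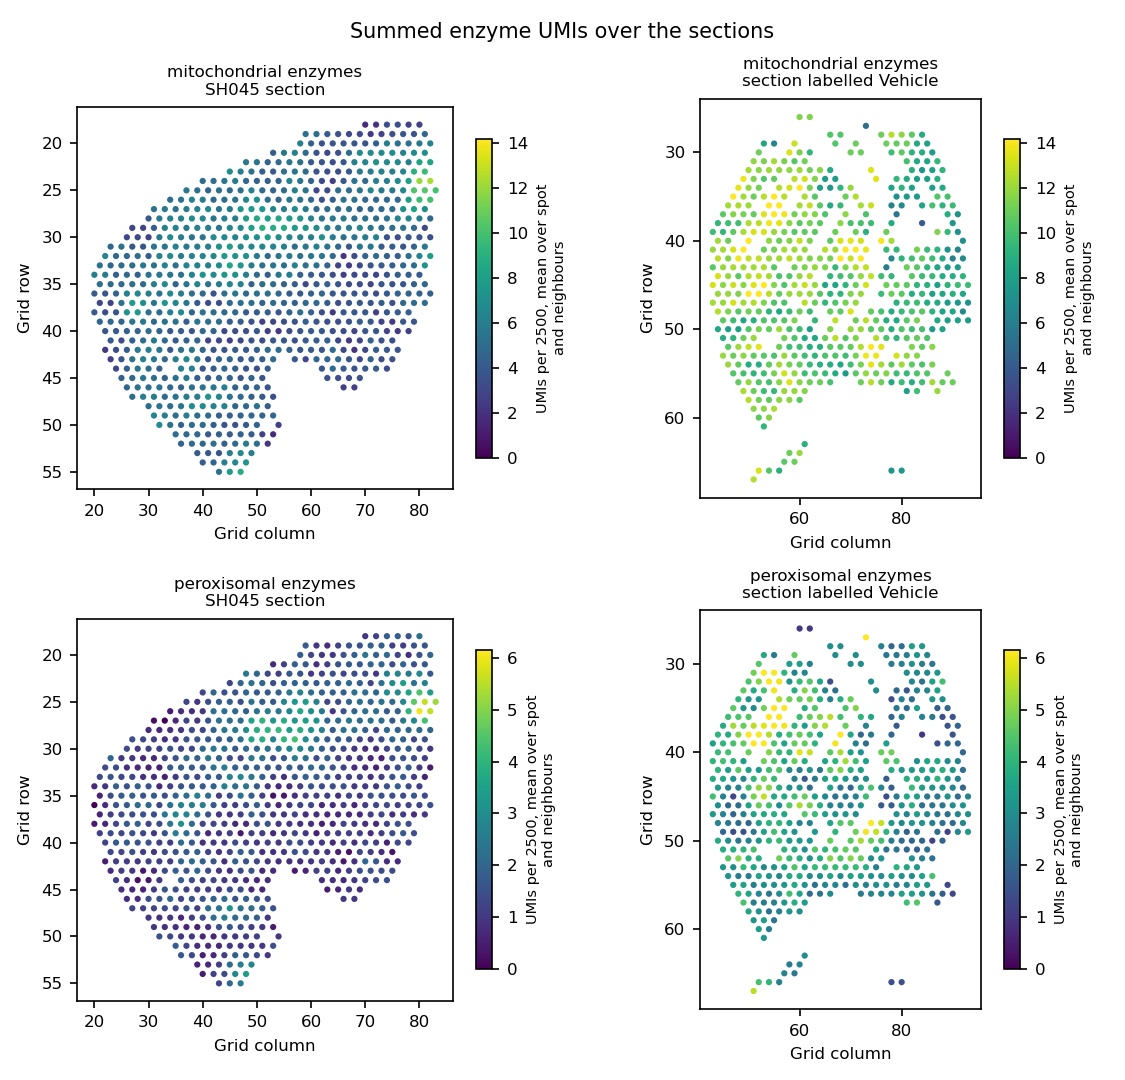
Thinned UMIs of the mitochondrial (top) and peroxisomal (bottom) lists per 2500 UMIs, averaged over each spot and its neighbours, at the grid positions of the SH045 section (left) and the section labelled Vehicle (right), with 1 colour scale per row. The spots of the section labelled Vehicle are brighter over most of the tissue, and in the SH045 section the brightest spots form a band and a patch at the right edge.

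To describe where in the nephron the members were found, the 10% of spots with the most thinned UMIs of a marker list were set against the other spots of the same section (79 and 711 spots in the SH045 section, 56 and 620 in the other). In the SH045 section, spots ranked by convoluted proximal tubule markers had 2954 CPM of the mitochondrial list against 1935 CPM elsewhere (1.53-fold) and 1099.8 against 630 CPM of the peroxisomal list (1.75-fold). Of the 34 members, 21 were at least 1.5-fold above the other spots and none was 1.5-fold below, where 7.14% of all measured genes were above and 26.6% below. Ehhadh was highest over the rest, at 139.8 against 31.4 CPM (4.45-fold), followed by Acaa1b at 277 against 65.2 CPM (4.26-fold) and Acsm2 at 875 against 206 CPM (4.26-fold). In the section labelled Vehicle the corresponding spots stood out little. Only Acox2 (85.6 against 50.3 CPM) and Acox3 (139 against 90.3 CPM) were 1.5-fold above, 2 of 34, and none was below, beside 13.5% and 23.4% of all measured genes. Convoluted markers themselves were 6038 against 1196 CPM in the ranked and other spots of the SH045 section, and 18551 against 11002 CPM in the section labelled Vehicle, so the ranked spots were set apart less there.

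Set against the whole section labelled Vehicle, those highest-ranked SH045 spots had lower levels of 25 members and higher levels of 9, at any fold. The share over all measured genes was not computed for these spots. Between the whole sections, 24.3% of all measured genes were lower in the SH045 section at any fold. Acsm2 stood at 875 CPM there but at 1827 CPM over the other section, Acaa1b at 277 against 595 CPM, Etfb at 456 against 926 CPM and Acaa2 at 105 against 286 CPM. The 9 higher ones were Slc27a2 (1650.2 against 867 CPM), Cd36 (218 against 159 CPM), Crot (165 against 92.4 CPM), Acadm, Etfa, Etfdh, Acox2, Decr2 and Slc25a20. Convoluted markers in those spots summed to 6038 CPM, short of the 11715 CPM of the other section.

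Across the 34 members, the log2 fold in convoluted-ranked spots of the SH045 section had a Pearson correlation of -0.61 (Spearman -0.40) with the log2 ratio between sections. That is, members more concentrated in those spots tended to be lower in the SH045 section. The same correlation with the fold in the ranked spots of the section labelled Vehicle was -0.22 (Spearman -0.21). These are descriptions over genes, which are not independent, and the SH045 counts enter both quantities of the first.

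**Figure D3:**
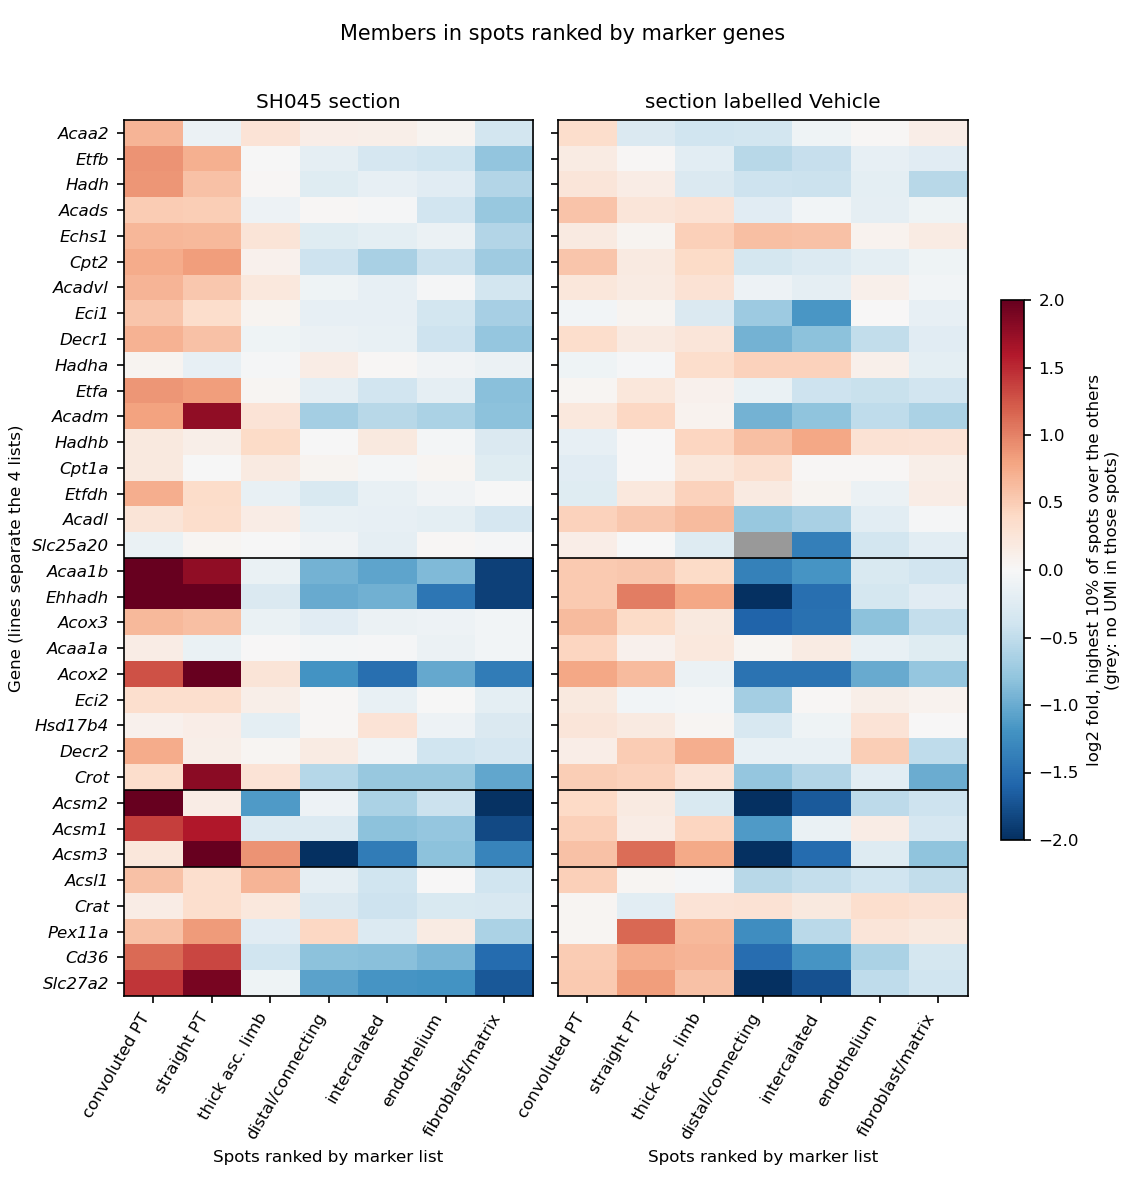
Log2 fold of each member in the highest 10% of spots by 7 marker lists over the other spots, for the SH045 section (left) and the section labelled Vehicle (right). Red marks levels above and blue levels below the other spots, and grey a member with no UMI. In the SH045 section the proximal tubule columns are mostly red and the fibroblast column blue, with 18 of 34 members 1.5-fold below and 0 above, beside 10.5% and 10.6% of all measured genes. In the section labelled Vehicle the distal and intercalated columns are mostly blue, with red for Echs1 and Hadhb.

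In spots ranked by straight proximal tubule markers of the SH045 section, 15 of 34 members were 1.5-fold above the other spots and none below, beside 6.04% and 20.2% of all measured genes. Acsm3 was 7.71-fold above (323 against 41.9 CPM), Acox2 5.81-fold (128 against 22.0 CPM), Ehhadh 4.81-fold (157 against 32.5 CPM) and Slc27a2 3.73-fold (2158 against 579 CPM). The peroxisomal list was 2.16-fold above (2.08 to 2.24) and the mitochondrial list 1.54-fold (1.51 to 1.58). Their ratio was therefore 2.27 (2.18 to 2.37) there and 3.18 (3.12 to 3.25) in the other spots. In convoluted-ranked spots of that section the ratio was also below the rest, at 2.69 (2.58 to 2.79) against 3.07 (3.01 to 3.14). In the section labelled Vehicle 6 of 34 were above and none below, beside 7.93% and 21.7% of all measured genes, with Pex11a (55.1 against 24.99 CPM), Acsm3 (198 against 91.5 CPM) and Ehhadh (272 against 133 CPM) leading. In that section 6 of the 9 straight-segment markers were under 10 CPM, a ranked spot needed only 2 thinned marker UMIs, and the ranking rested on Slc7a13, Slco1a6 and Aadat. Thick ascending limb spots of that section, 14 of 56 of which were also straight-ranked, likewise had 6 of 34 members above and none below, beside 17.2% and 12.1% of all measured genes.

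When straight-ranked spots were set directly against convoluted-ranked spots, leaving out the 17 and 6 spots ranked in both, 4 members of the SH045 section were 1.5-fold higher in the straight-ranked and 3 in the convoluted-ranked spots, with 27 within that fold. Of all measured genes 10.3% and 6.47% were, so the members' shares were near those of genes in general. Acsm3 stood at 337 against 34.5 CPM (9.77-fold, 7.78 to 12.4), Crot at 372 against 117 CPM (3.18-fold, 2.77 to 3.66), Acox2 at 117 against 44.6 CPM (2.61-fold) and Acadm at 515 against 246 CPM (2.10-fold). Higher in the convoluted-ranked spots were Acsm2 at 933 against 219 CPM (4.25-fold, 3.83 to 4.73), Acaa2 at 110.4 against 60.7 CPM (1.82-fold) and Decr2 at 31.7 against 18.6 CPM (1.70-fold). The neighbouring genes Acsm2 and Acsm3 thus lay at opposite ends. In the section labelled Vehicle, Acaa2 was again higher in the convoluted-ranked spots, at 376 against 241 CPM (1.56-fold, 1.20 to 2.02), and Pex11a stood at 59.7 CPM in straight-ranked and 31.3 CPM in convoluted-ranked spots with an interval of the fold, straight over convoluted, from 0.92 to 4.24. The other 32 members were within 1.5-fold there, while of all measured genes 17.9% were higher in the straight-ranked and 21.4% in the convoluted-ranked spots.

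**Figure D4:**
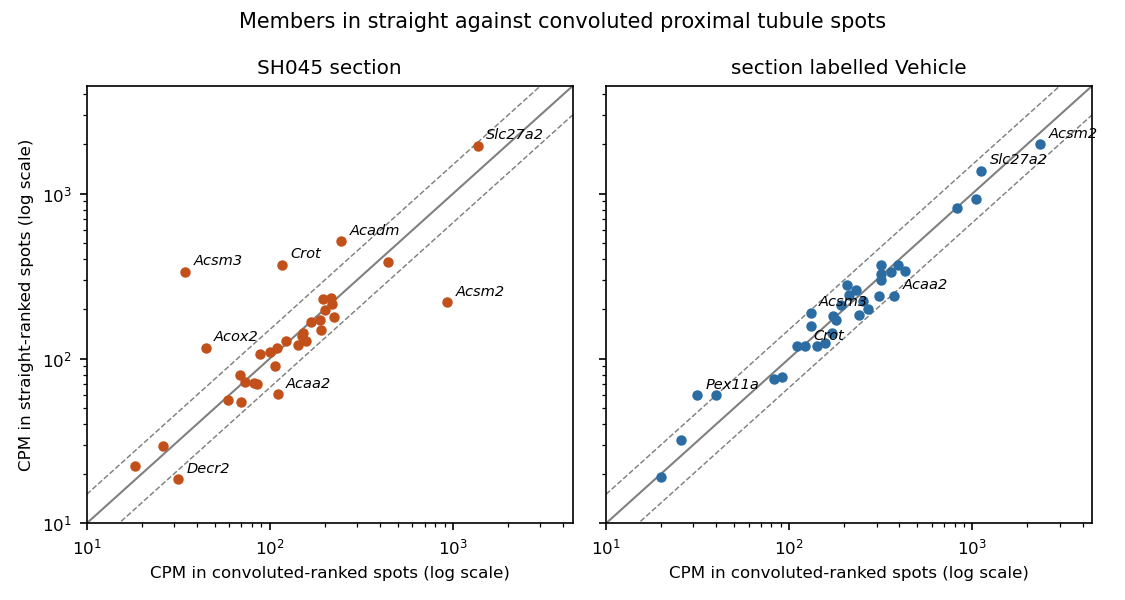
CPM of each member in straight-ranked (vertical, log scale) against convoluted-ranked spots (horizontal, log scale) of the SH045 section (left, 62 and 62 spots) and the section labelled Vehicle (right, 50 and 50 spots). The solid line is equality and dashed lines 1.5-fold. Acsm3, Crot, Acox2 and Acadm lie above and Acsm2, Acaa2 and Decr2 below the dashed lines on the left, and all but Pex11a and Acaa2 lie between them on the right.

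In distal-ranked spots the peroxisomal list was further below the other spots than the mitochondrial list was. The same held in both sections for spots ranked by principal cell, intercalated cell, endothelium, injured-tubule, fibroblast and macrophage markers. It was thus not particular to distal-ranked spots. In the section labelled Vehicle these lists were not separate. Of 56 principal cell spots there, 24 were also distal-ranked and 32 intercalated-ranked. Endothelium, fibroblast and macrophage spots there needed only 2 thinned marker UMIs. Of its 7069 injured-tubule UMIs, Spp1 had 3265, Clu 2725 and Havcr1 7. In the section labelled Vehicle, spots ranked by distal convoluted and connecting tubule markers had 3761 CPM of the mitochondrial list against 4384 CPM elsewhere (0.86-fold) but 819 against 1535 CPM of the peroxisomal list (0.53-fold). The ratio of the lists was 4.59 (4.07 to 5.20) there and 2.86 (2.77 to 2.94) in the other spots. Of the 34 members 17 were 1.5-fold below and 2 above, beside 22.5% and 24.8% of all measured genes. Echs1 stood above the other spots, at 492 against 323 CPM (1.52-fold), as did Hadhb at 283 against 187 CPM (1.51-fold), while Hadha stood at 242 against 177 CPM (1.37-fold). Far below were Ehhadh (30.6 against 162 CPM), Slc27a2 (184 against 935 CPM), Acsm2 (454 against 1964 CPM) and Acsm3 (10.2 against 114 CPM, from 4 UMIs). No UMI of Slc25a20 was found in these spots. Convoluted proximal tubule markers were also lower there, at 4580 CPM against 11715 CPM in the whole section. Of these 56 spots 33 were also ranked highest by intercalated cell markers, whose ratio was 4.04 (3.61 to 4.54), and 40 by injured-tubule markers, whose ratio was 4.61 (4.08 to 5.23), so the 3 values are not separate.

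In the SH045 section the distal-ranked spots differed less from the rest, with a ratio of 3.32 (3.13 to 3.52) against 2.95 (2.90 to 3.01). There 7 of 34 members were 1.5-fold below and none above, beside 4.99% and 2.51% of all measured genes. The 7 were Acadm, Acox2, Ehhadh, Acaa1b, Acsm3, Cd36 and Slc27a2. Distal markers in that section summed to only 620 CPM, where the section labelled Vehicle had 23033 CPM, and a ranked spot needed 4 thinned marker UMIs. Endothelium-ranked spots of the SH045 section had a ratio of 3.38 (3.15 to 3.63), so a ratio above the rest was not particular to distal-ranked spots.

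**Figure D5:**
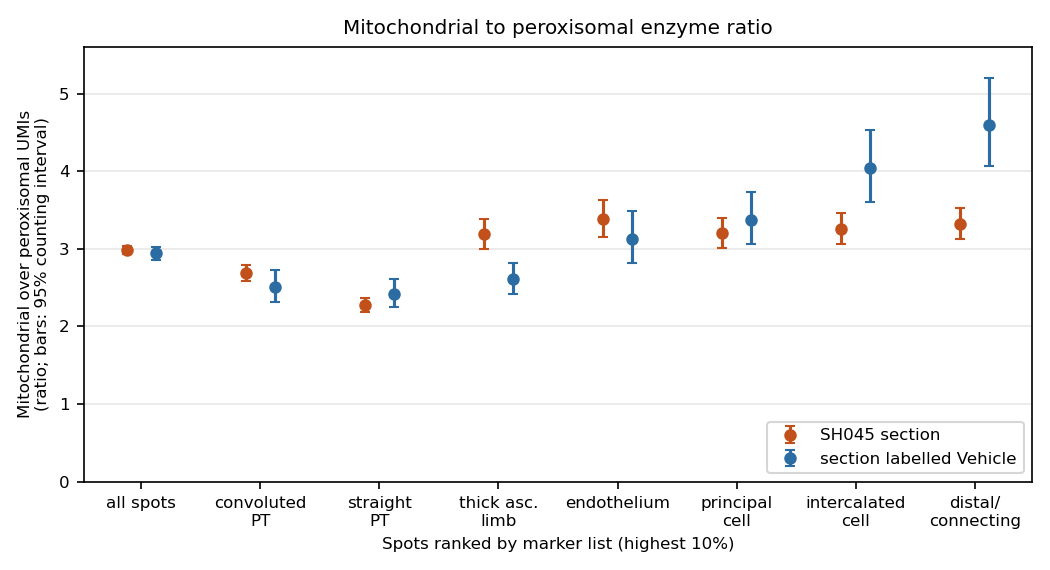
Ratio of mitochondrial-list to peroxisomal-list UMIs over all spots and in the highest 10% of spots by 7 marker lists, for the SH045 section (orange) and the section labelled Vehicle (blue), with 95% counting intervals and an axis from 0. Both sections start near 3, at 2.99 and 2.94. Both are lower in straight-ranked spots, at 2.27 and 2.42, and in convoluted-ranked spots, at 2.69 and 2.51. In the section labelled Vehicle these 2 intervals overlap, and thick ascending limb spots are at 2.61. The highest value drawn is 4.59, in the distal-ranked spots of the section labelled Vehicle.

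Other genes of the pathways were taken from fixed lists. Of all measured genes, 12.0% were lower and 53.2% higher in the SH045 section by the fold used for these counts. One list held 19 genes under the name other mitochondrial oxidation enzymes. Many, but not all, break down amino acid and branched-chain products or help with double bonds. Of these 19 genes 15 were lower in the SH045 section and 0 higher. Their median log2 ratio was -0.84. Ech1, a dienoyl-CoA isomerase, stood at 224 against 551 CPM (2.46-fold), and Gcdh, glutaryl-CoA dehydrogenase, at 90.6 against 294 CPM (3.25-fold). Hibadh, of valine breakdown, stood at 140 against 298 CPM (2.13-fold). Of 22 measured genes listed as other peroxisomal lipid enzymes, not all of which act on lipids, 11 were lower and 1 was higher. Scp2, a thiolase and lipid carrier, stood at 395 against 942 CPM (2.39-fold), and Cat, the catalase that removes the peroxide formed, at 255 against 702 CPM (2.76-fold).

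A list of peroxisome assembly and membrane genes, which leaves out the member Pex11a, differed less than the 9 peroxisomal enzymes by median log2 ratio. Of its 17 measured genes 3 were lower and 0 higher, and their median log2 ratio was 0.04 beside 0.66 for all measured genes. Relative to the median gene 9 were lower and 0 higher. Of all measured genes 12.0% were lower and 53.2% higher, or 26.5% and 26.5% relative to the median gene. Pxmp4, a peroxisomal membrane protein, stood at 64.0 against 112 CPM (1.74-fold). Pex19, a chaperone of membrane proteins, stood at 65.7 against 81.6 CPM with overlapping blocks, and Slc25a17, a cofactor carrier, at 81.6 against 64.2 CPM. Of 21 measured uptake, binding and activation genes 8 were lower and 6 higher, or 13 and 3 relative to the median gene. Dbi, the acyl-CoA binding protein, stood at 1750 against 2405 CPM (1.37-fold), Acot13, a thioesterase, at 136 against 320 CPM (2.35-fold), and Lpl, lipoprotein lipase, at 141 against 236 CPM (1.67-fold).

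Of 21 measured regulators 9 were lower and 5 higher, or 12 and 3 relative to the median gene. All measured genes stood at 12.0% lower and 53.2% higher, or 26.5% and 26.5% relative to the median gene. Ppara, the nuclear receptor best known for inducing these enzymes, was not measured, at 1.61 and 0.92 CPM, the latter from 4 UMIs, and no difference was detectable at this depth. Ppargc1a, its coactivator, stood at 18.2 against 32.6 CPM (1.79-fold, 1.47 to 2.17). Esrra, an orphan receptor that drives mitochondrial genes, stood at 60.1 against 163 CPM (2.71-fold), and Hnf4a, a proximal tubule identity factor, at 116 against 264 CPM (2.26-fold). Ncor1, a corepressor, stood at 81.3 against 51.3 CPM, 1.58-fold higher in the SH045 section, about as much as the median gene. Of 11 measured PPAR alpha target genes outside oxidation 6 were lower and 4 higher, or 7 and 3 relative to the median gene. Cyp4a14, a fatty acid omega-hydroxylase, stood at 64.3 against 330 CPM (5.13-fold), Cyp4a10 at 94.8 against 250.02 CPM (2.64-fold) and Cyp4a31 at 79.2 against 161 CPM (2.03-fold). The 4 higher ones were Pdk4 (15.1 against 1.85 CPM), Angptl4 (80.3 against 10.9 CPM), Plin2 (125 against 67.2 CPM) and Ucp2 (165 against 59.6 CPM). The 11 genes of this list thus did not share a direction, and the cause was not tested.

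RefSeq promoter windows (250 bases before and 50 after a listed start of a gene, GRCm38.p6) were found for 30 of the 34 members and searched on both strands. Some genes had more than 1 window, with 32851 windows for 27025 genes, and a match in any window of a gene counted. PPAR alpha binds as a dimer to a direct repeat with 1 spacer base, the DR1 element. Allowing up to 2 mismatches in the letters AGGTCA, any base and AGGTCA again, 5 of 30 members (16.7%) held a match, beside 4.40% of the 27025 genes with a window. The matched stretches are printed because these members share a letter pattern that the choice of genes did not use. Matches are in capitals, each with 8 flanking bases, and each is read on its gene's strand. The Acox2 and Cd36 matches came from windows at starts inside the gene spans, chr14:8225511-8259019 and chr5:17781690-17888959, and not at their outer ends.
Acox2, chr14:8258810-8258838, minus strand: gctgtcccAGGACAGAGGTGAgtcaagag
Cd36, chr5:17835939-17835967, minus strand, match on the opposite strand: tggttctcTGGCCTCTGACTTacttggat
Echs1, chr7:140116484-140116512, minus strand: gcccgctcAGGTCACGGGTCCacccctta
Etfa, chr9:55512300-55512328, minus strand, match on the opposite strand: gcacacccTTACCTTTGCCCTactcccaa
Slc25a20, chr9:108662134-108662162, plus strand: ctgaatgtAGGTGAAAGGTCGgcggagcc

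These 5 genes did not share a size of difference, with Vehicle over SH045 folds of 1.59 for Acox2, 1.38 for Cd36, 2.32 for Echs1, 1.60 for Etfa and 0.85 for Slc25a20. The half-site TNAAGGTCA of the estrogen-related receptors was found in none of the 30 members with a window and in 1.43% of all genes. The palindrome bound by NRF1, made of GCGC, AT and GCGC without spacers, with up to 1 mismatch, was found in Acadm, Etfb and Etfdh, 10.0% of the 30, beside 7.13% of all genes. The first 2 motifs share the letters AGGTCA, and a match is a description of the letters, not of binding.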

How the data were processed

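Each of the 2 sections is 1 sample, and spots are not replicates, so no test was made. The authors deposited UMI counts per gene and spot, not normalized, made with Space Ranger 2.0.1 per the file headers and with build mm10 per the submitters' processing notes. For alignment settings and annotation release: not given in the sources used here. The tissue flag of the section labelled Vehicle marks 1210 spots, only 570 of which are among its 676, so all deposited spots were used. Counts were summed per section and scaled to 1000000 UMIs. Levels have exact Poisson and folds exact binomial 95% intervals. Genes were called at 1.5-fold without a pseudocount. Scaling alternatives used TMM (edgeR 4.0.16) and median of ratios. Python 3.11.15, NumPy 2.4.6, SciPy 1.17.1 and pandas 2.3.3 were used, and the calls were tested on simulated data. All 34 members are named, with the 3 genes of highest mean level of each pathway list, Ppara and Ppargc1a, except for pathway genes that are not reported here. Pathway genes given as the higher members of a list were named after their values were seen, as were the distal comparisons of single genes. The members and lists were chosen with earlier results of these data known.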

Additional observations from a re-analysis of the deposited data

How the results depend on the processing

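With 1 section per group no alternative gives a test, and depth limits Slc25a20, Decr2, Pex11a and Ppara most in the section labelled Vehicle. No value changed direction for the summed lists. The log2 ratio of summed mitochondrial levels, -1.06, was -1.67 with TMM, -1.72 with median of ratios, -1.16 without mitochondrially encoded genes in the total, -1.10 as a mean over spots, -1.15 with spots of the section labelled Vehicle under 10% mitochondrially encoded UMIs, -1.10 after thinning to 2500 UMIs, -1.36 with wider lists, -1.11 with chain-shortening enzymes alone and -0.92 without Etfb. For the peroxisomal enzymes, -1.08 became -1.69 with TMM, -1.74 with median of ratios, -1.18 without mitochondrially encoded genes, -1.14 with spots flagged as tissue, -1.28 with spots under 10%, -1.16 after thinning, -0.72 with wider lists, -1.38 with chain-shortening enzymes and -0.54 without Acaa1b. At a 2-fold threshold 7 rather than 12 mitochondrial and 3 rather than 5 peroxisomal enzymes were lower, and 8 peroxisomal ones with TMM or median of ratios. With TMM 32 members were lower, and 25.1% of all measured genes were lower and 28.0% higher. The median-of-ratios split was 26.4% and 26.6%.

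The SH045 ratio of lists, 2.99, was 3.08 as a mean over spots, 3.22 after thinning, 1.62 with wider lists and 3.69 with chain-shortening enzymes. The other section's ratio, 2.94, was 3.06 as a mean over spots, 2.73 with spots under 10%, 3.08 after thinning, 2.53 with wider lists, 3.06 with chain-shortening enzymes and 3.88 without Etfb and Acaa1b. The spot correlation in the SH045 section, 0.26, was 0.45 with wider lists, 0.19 without those genes, 0.59 with neighbours summed, 0.39 at 5000 UMIs, 0.74 without thinning and 0.20 as Spearman rho. In the other section 0.25 became 0.34 with wider lists and 0.46 with neighbours summed. Chosen after seeing the data, the ratio in ranked spots was also taken at the highest 5% and 20% of spots. In straight-ranked SH045 spots it was 2.46 at 20%, in distal-ranked spots of the section labelled Vehicle 3.89 at 20%, and in its straight-ranked spots 2.19 with spots under 10%. The causes were not tested. No paired analysis was possible because each group has 1 section.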

Other observations

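All 6 ketone body genes were lower in the SH045 section, beside 12.0% of all measured genes. They summed to 625 against 1774 CPM (2.84-fold, 2.76 to 2.92). Oxct1, which activates ketone bodies for use as fuel, stood at 268 CPM (position blocks 183 to 338) against 956 CPM (743 to 1191). Acat1, the mitochondrial acetoacetyl-CoA thiolase, stood at 126 against 311 CPM (2.47-fold). Bdh2, a hydroxybutyrate dehydrogenase, stood at 113 against 273 CPM (2.42-fold).

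Of 19 measured fatty acid synthesis and storage genes, 6 were lower and 4 higher in the SH045 section, and their median log2 ratio was -0.25. Relative to the median gene 13 were lower and 1 higher. Among all measured genes the shares were 12.0% lower and 53.2% higher, or 26.5% and 26.5% relative to the median gene. Scd1, a stearoyl-CoA desaturase named after its values were seen, stood at 241 against 16.6 CPM, while its family member Scd2 stood at 197 against 276 CPM with overlapping blocks. Me1, the malic enzyme that supplies NADPH, stood at 130.2 against 242 CPM (1.86-fold), and Elovl1, an elongase, at 119.8 against 153 CPM (1.28-fold).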
